A study of Homo sapiens with 13 samples.

Results

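TEAD4 and JUN occupancy was compared peak by peak across the genome of MDA-MB-231 cells, using chromatin immunoprecipitation and sequencing (ChIP-seq). The comparison rests on the deposited TEAD4 list of 8406 peaks and the deposited JUN list of 24554 peaks, 32960 of the 50467 peaks listed for the 4 factors of the series. A TEAD4 peak and a JUN peak were paired when they overlapped by at least 1 bp, a rule that uses peak positions and neither enrichment nor p-value. The rule was chosen with earlier results of these data known. MDA-MB-231 is an established, mesenchymal-like human breast cancer line, and all cells were grown in DMEM:F12 with 10% serum, with no treatment named in the labels. TEAD4 was precipitated with an antibody to TEF-3, an older name of the protein, and JUN with an antibody to JUN, each in 2 replicates that the submitters describe as independent. TEAD4 peaks were called against pooled mouse IgG libraries 3 and 4 and JUN peaks against mouse IgG libraries 3 and 5, so the lists have 1 control library in common. The raw file names place JUN replicate 2 and mouse IgG 5 on another sequencing run than the other libraries of this comparison, and the run and the factor cannot be told apart there. The replicate tag inside the peak names differs between the JUN and TEAD4 lists. The labels do not explain it, so which libraries lie behind the JUN list is uncertain. Each factor has 1 list and no values per replicate, so no value below carries a spread between replicates, and the read depth is unknown here. Intervals are 95% intervals from the binomial distribution (Clopper-Pearson for shares, order statistics for medians). They cover counting error only and treat peaks as separate, although neighbouring peaks share their libraries.

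TEAD4 and JUN belong to unrelated families of DNA-binding proteins. TEAD proteins bind DNA through a TEA domain and have little activating capacity of their own, and they recruit the Hippo-pathway coactivators YAP and TAZ. JUN binds through a basic leucine zipper as a dimer with another JUN or a FOS-family protein, and these dimers form the transcription factor AP-1, which is active in response to growth factors and stress. Positions are on hg19 and are counted from 1. No gene annotation or genome sequence of that build was used here, so sites are named by position, without genes or motifs, and the identity of the cell line was not checked against marker genes.

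Most TEAD4 peaks held JUN, whereas most JUN peaks had no TEAD4. A JUN peak lay at 5745 TEAD4 peaks, which is 68.3% of the TEAD4 list (67.3 to 69.3), and a TEAD4 peak lay at 5672 JUN peaks, which is 23.1% of the JUN list (22.6 to 23.6). The pairs were nearly always simple: 5595 of the 5745 (97.4%) joined exactly 1 peak of each list, 2 TEAD4 peaks met 2 JUN peaks each, and 73 JUN peaks spanned 2 or 3 TEAD4 peaks. The JUN peak was usually the wider one, with a median of 824 bp in pairs against 527 bp for TEAD4. The TEAD4 peak lay wholly inside the JUN peak in 4178 pairs (72.7%, 71.6 to 73.9), the reverse held in 218 (3.79%), and the remaining 1349 were staggered. The TEAD4 summit, the base of highest signal, fell inside the JUN peak in 99.9% of pairs, and the JUN summit fell inside the TEAD4 peak in 94.8%.

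The share of TEAD4 peaks with JUN followed the length of the JUN list. The 1000 JUN peaks of lowest p-value met 5.64% of the TEAD4 list, the first 4000 met 20.2%, the first 8000 met 34.5% and the first 16000 met 54.7%. The curve had not levelled off at the end of the list: the step from 20000 to all 24554 JUN peaks took the share from 61.7% to 68.3%. With the JUN list cut to the length of the TEAD4 list, the shares were 35.7% of TEAD4 and 34.999% of JUN peaks.

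Paired peaks ranked higher within their own list than unpaired ones. The authors' fold enrichment over IgG was turned into a percentile within each list, 100 being the most enriched peak. Paired TEAD4 peaks had a median percentile of 52.9 (51.7 to 54.3) and unpaired TEAD4 peaks 43.8 (42.0 to 45.8), the underlying enrichments being 7.41-fold and 6.796-fold. Paired JUN peaks had a median percentile of 64.3 (63.0 to 65.4) and unpaired JUN peaks 45.7 (44.9 to 46.4), from 13.5-fold and 11.3-fold. In both lists the paired median was the higher one on 23 of 23 chromosomes. Which list had the wider gap depended on list length: with the JUN list cut to 8406 peaks, paired and unpaired medians were 57.8 and 45.9 for TEAD4 and 53.0 and 48.4 for JUN. With a reciprocal overlap of 50% they were 56.8 and 43.4 for TEAD4 and 60.8 and 47.5 for JUN. Unpaired peaks were also narrower, with medians of 452 bp for TEAD4 and 704 bp for JUN against 527 and 820 bp for paired peaks of the same list.

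Divided into 10 equal parts by enrichment, the TEAD4 list showed a shallow slope. JUN was present at 79.2% (76.3 to 81.9) of the most enriched part, 77.1% of the next, 67.5% of part 5 and 62.0% (58.6 to 65.3) of the least enriched. The JUN list was steeper, with TEAD4 at 39.1% (37.2 to 41.1) of the most enriched part, 23.8% of part 5 and 14.2% (12.8 to 15.6) of the last. Ranking by −log10 p in place of enrichment changed the head of the TEAD4 list. The first part by p held JUN at 68.4% (65.1 to 71.5), below the second part at 76.5% and the third at 74.9%. The first part of the JUN list by p held TEAD4 at 44.2%, above its value by enrichment.

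**Figure D1:**
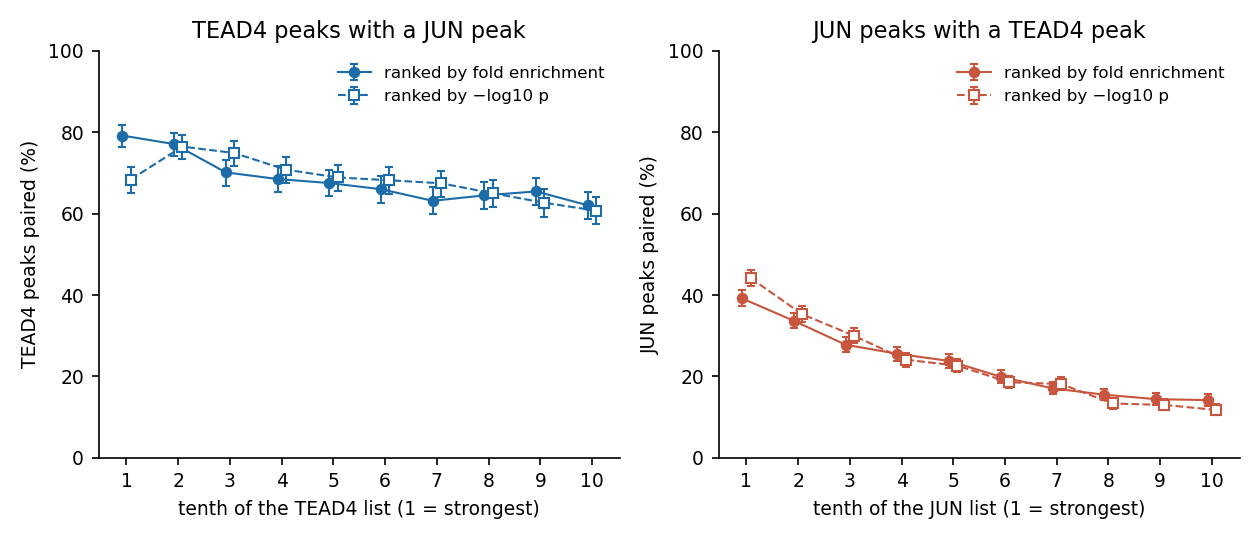
Share of peaks paired (%) in 10 equal parts of the TEAD4 list (left) and of the JUN list (right), part 1 being the strongest, with Clopper-Pearson 95% intervals as bars. Filled circles rank peaks by fold enrichment and open squares by −log10 p; the TEAD4 lists part at the first point, 79.2% by enrichment and 68.4% by p, and the JUN list falls from 39.1% to 14.2% by enrichment.

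A stretch of chromosome 6 entered the first part by p and not the first part by enrichment. Without the 3 bins of 1 Mb on chromosome 6 between 26 and 29 Mb, the first part by p held 794 of its 841 peaks, of which 575 were paired (72.4%, 69.2 to 75.5), and the first part by enrichment kept all 840. Other bins also weighed more by p. Without all 21 bins with 6 or more unpaired TEAD4 peaks, these 3 included, 75.5% of the 750 peaks left by p were paired. By enrichment it was 79.95% of the 823 left. All these bins were chosen for their many unpaired TEAD4 peaks, so the direction of the changes by p was fixed by their choice.

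The strongest sites of one factor were seldom the strongest of the other. Of the 500 TEAD4 peaks with the lowest p, 349 (69.8%) held some listed JUN peak, but 28 (5.60%, 3.75 to 7.99) held one of the 500 JUN peaks with the lowest p. The JUN partners of these 349 peaks had a median percentile by p of 77.9 (73.4 to 81.2). In the other direction, 252 of the 500 strongest JUN peaks (50.4%) held TEAD4, at a median TEAD4 percentile of 64.4 (58.3 to 70.9). With the first 1000, 2000 and 4000 peaks of each list the shared share of TEAD4 peaks was 9.50%, 16.3% and 24.6%. The same 1000, 2000 and 4000 JUN peaks met 5.64%, 10.8% and 20.2% of the whole TEAD4 list. At each of these lengths the strongest TEAD4 peaks thus held a strong JUN peak more often than the whole list did. For the first 500 JUN peaks the share of the whole TEAD4 list was not computed.

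Within pairs the ranks were only loosely related. Spearman's rho between TEAD4 and JUN enrichment was 0.19 across the 5745 pairs, and it lay between 0.082 and 0.28 on single chromosomes. These points share libraries and 1 IgG control, so rho is given as a description. For comparison, rho of TEAD4 enrichment was 0.59 with YAP over 5773 overlapping peaks and 0.59 with TAZ over 6626, although those libraries were made with other IgG controls and on another run. Peak widths followed each other more closely than enrichment, with rho 0.36 between TEAD4 and JUN. The percentiles of a pair differed by a median of 25.9 points (25.1 to 26.6). They lay within 10 points of each other in 1299 pairs (22.6%) and more than 50 points apart in 1186 (20.6%). Of the latter, JUN was the higher in 808 and TEAD4 in 378. This direction depends on list length. In pairs from the whole lists the median percentile was 52.9 for TEAD4 and 64.5 for JUN. With the JUN list cut to the length of the TEAD4 list, paired peaks had medians of 57.8 for TEAD4 and 53.0 for JUN.

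With each list divided into 5 equal parts by enrichment, the make-up of the JUN partners changed step by step along the TEAD4 list. Of the 1314 pairs with a TEAD4 peak from part 1, the most enriched, 530 (40.3%, 37.7 to 43.0) had a JUN peak from part 1 of its list and 109 (8.30%) one from part 5. For TEAD4 peaks of parts 2, 3 and 4 the share with a JUN peak from part 1 was 34.7%, 33.1% and 28.97%. Of the 1074 pairs with a TEAD4 peak from part 5, 207 (19.3%) had a JUN peak from part 1 and 232 (21.6%) one from part 5, shares whose intervals overlap (17.0 to 21.8 and 19.2 to 24.2). The ranks also moved with the coactivators, which are given as background. In the 4332 pairs whose TEAD4 peak also overlapped YAP and TAZ, the median percentile was 63.1 for TEAD4 and 69.3 for JUN, and in the 702 pairs with neither it was 24.8 and 47.3. Within the pairs with both coactivators rho was 0.11, and within those with neither it was 0.19.

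**Figure D2:**
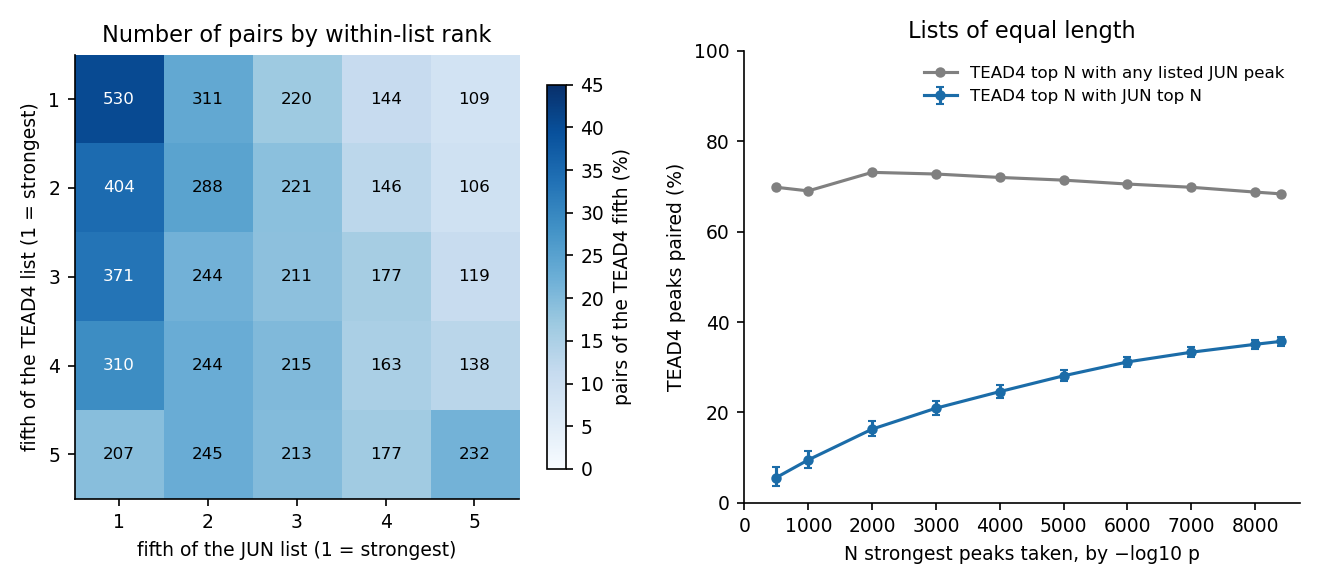
Left, number of TEAD4 and JUN pairs by part of each list (5 equal parts, 1 = most enriched), shaded by the share of the TEAD4 part; the top row runs from 530 pairs to 109 and the bottom row from 207 to 232. Right, share of the N strongest TEAD4 peaks (by −log10 p) with one of the N strongest JUN peaks (blue, with 95% intervals) and with any listed JUN peak (grey), which is 5.60% against 69.8% at N = 500.

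Single sites show the range. The best joint rank belonged to a site on chromosome 14, where the TEAD4 peak (100046111 to 100046672) had 23.9-fold and the JUN peak (100045753 to 100046914) 29.1-fold enrichment, with summits 3 bp apart. Next came chromosome 1 (TEAD4 19336307 to 19336950, 26.2-fold; JUN 19335734 to 19338140, 28.3-fold), where a JUN peak 2407 bp wide had its summit 1130 bp above that of TEAD4. The remaining 3 of the best 5 lay on chromosome 21 (TEAD4 46432163 to 46432850), chromosome 7 (TEAD4 151451100 to 151451674) and chromosome 9 (TEAD4 37472254 to 37472830), with summits 4, 61 and 3 bp apart. All 5 TEAD4 peaks also overlapped YAP and TAZ peaks.

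At the other extreme, pairs joined the head of one list to the tail of the other. On chromosome 20 a TEAD4 peak (30307532 to 30308690) of 18.2-fold, percentile 97.4, met a JUN peak of 5.76-fold, percentile 0.269, with summits 8 bp apart. Similar pairs lay on chromosome 16 (TEAD4 68271044 to 68272034, 22.95-fold; JUN 7.41-fold) and chromosome 2 (TEAD4 67616263 to 67617122, 20.6-fold; JUN 7.34-fold). In the reverse sense, a JUN peak on chromosome 3 (67697022 to 67698797) of 22.1-fold, percentile 95.6, met a TEAD4 peak of 3.93-fold, percentile 0.464. The next were a JUN peak of 32.1-fold on chromosome 3 (12804688 to 12805401) over TEAD4 at 4.77-fold, and one of 34.99-fold on chromosome 2 (239051953 to 239052834) over TEAD4 at 4.89-fold. In 5 of these 6 pairs the summits lay within 85 bp of each other, and in the chromosome 16 pair they were 373 bp apart.

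The summits of paired peaks lay close together and on neither side by preference. The signed offset, the JUN summit minus the TEAD4 summit on the genome coordinate, had a median of 0 bp (-1 to 1), with quartiles at -30 and 32 bp. JUN lay at the higher coordinate in 2854 pairs (49.7%, 48.4 to 50.98) and at the lower one in 2811 (48.9%), and 80 pairs shared the same base. The lists give no strand, so this symmetry is that of the coordinate and says nothing of the order of the binding sites on a strand. The absolute offset had a median of 31 bp (30 to 33). It was at most 10 bp in 22.2% of pairs, at most 50 bp in 66.6% and at most 200 bp in 90.9%. Counts per step of 10 bp declined from 1166 pairs at 0 to 9 bp through 897, 704 and 586 to 438 at 40 to 49 bp, with no second maximum up to 99 bp. On single chromosomes the median absolute offset was between 25 and 39 bp, and the median signed offset between -7 and 7 bp.

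The same symmetry, with shorter distances, was seen for the coactivators. Many of the sites are shared, since 4332 of the 5745 TEAD4 and JUN pairs had YAP and TAZ at the TEAD4 peak. A JUN peak lay at 77% of YAP and 74.7% of TAZ peaks. JUN summits lay a median of 27 bp from those of YAP and of TAZ, at the higher coordinate in 49.8% and 50.1% of pairs. TEAD4 summits lay a median of 16 bp from YAP and 17 bp from TAZ. Offsets above 100 bp made up 15.1% (14.2 to 16.0) of TEAD4 and JUN pairs, 11.02% of YAP and JUN pairs, and 3.05% of TEAD4 and YAP pairs.

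Offsets were shorter at enriched TEAD4 peaks, and over all pairs their medians showed no steady change with JUN enrichment. From part 1 to part 5 of the TEAD4 list by enrichment the median absolute offset was 27 (24 to 29), 30, 30, 35 and 36 bp (33 to 40), and the share above 100 bp went from 11.3% (9.60 to 13.1) to 19.2% (16.9 to 21.7). From part 1 to part 5 of the JUN list the medians were 33, 29, 32, 30 and 31 bp. Across pairs, rho of the absolute offset was -0.10 with TEAD4 and 0.024 with JUN enrichment. The 207 pairs of a part 5 TEAD4 and a part 1 JUN peak had a median of 49 bp (43 to 58). The 232 pairs from part 5 of both lists had a median of 32 bp (24 to 38), so among the weakest TEAD4 peaks the offset was longer where JUN was strong. The medians were 27 bp (18 to 34) in the 109 pairs of a part 1 TEAD4 and a part 5 JUN peak and 29 bp (24 to 31) in the 530 pairs from part 1 of both lists. Pairs with YAP and TAZ at the TEAD4 peak had a median of 30 bp (29 to 31) and pairs with neither 38 bp (35 to 42).

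Long offsets went with wide JUN peaks, which the pairing rule in part requires. The TEAD4 summit lay inside the JUN peak in 99.9% of pairs, so the width of the JUN peak bounds the offset. In 4 equal parts by JUN width the median absolute offset was 23, 30, 32 and 47 bp, and the share above 100 bp was 4.71%, 8.88%, 15.1% and 31.5% (29.2 to 34.0). The 268 pairs with offsets above 500 bp had JUN peaks with a median width of 1687.5 bp, and JUN was at the higher coordinate in 134 of them. The longest offsets were 2835 bp on chromosome 14 (TEAD4 62028351 to 62029057), -2712 bp on chromosome 1 (TEAD4 32043527 to 32043882) and -2633 bp on chromosome 20 (TEAD4 33895576 to 33896521), with JUN peaks 4374, 3348 and 3726 bp wide.

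The 73 JUN peaks that spanned several TEAD4 peaks, which a narrow peak could not do, had a median width of 1856 bp. It was 815 bp for JUN peaks with 1 TEAD4 peak. Neighbouring TEAD4 summits inside 1 JUN peak were a median of 755 bp apart (711 to 867), and never less than 419 bp. The JUN summit was within 100 bp of a TEAD4 summit in 62 of the 73 (84.9%, 74.6 to 92.2). Over all pairs the share within 100 bp was also 84.9%, although each of the 73 had 2 or 3 TEAD4 summits to be near.

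**Figure D3:**
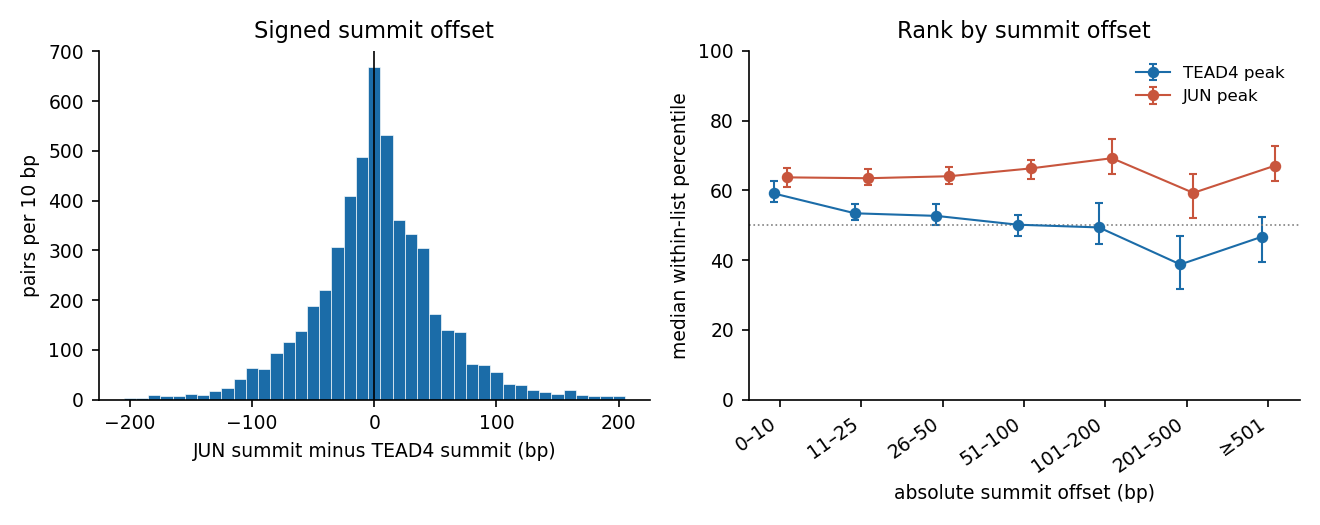
Left, number of pairs per 10 bp of signed offset (JUN summit minus TEAD4 summit, shown to about 200 bp on either side). The counts peak at 668 in the bin centred on 0 and fall away on both sides. Single bins differ between the sides in either direction, with 409 pairs at -20 and 361 at 20 bp, and 220 at -40 and 304 at 40 bp. Right, median within-list percentile of enrichment of the TEAD4 peak (blue) and the JUN peak (red) by absolute offset in bp, with 95% intervals; TEAD4 goes from 59.1 at 0 to 10 bp to 38.8 above 200 and up to 500 bp, while JUN lies between 59.3 and 69.2.

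Unpaired TEAD4 peaks numbered 2661, and JUN was often in the neighbourhood without touching them. The gap between the edges of an unpaired TEAD4 peak and the nearest JUN peak had a median of 18.7 kb (16.6 to 20.8), with quartiles at 4.49 and 64.2 kb. JUN lay within 1 kb of 229 of them (8.61%, 7.57 to 9.74), within 10 kb of 1016 (38.2%) and within 100 kb of 2232 (83.9%), and 429 (16.1%) had none within 100 kb. The nearest JUN peak was at the lower coordinate for 1339 (50.3%). Of the 229 nearest cases, 45 had a gap of at most 200 bp and the smallest gap was 25 bp, so some were close to being counted as pairs.

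Unpaired YAP and TAZ peaks stood at similar distances from JUN, with medians of 17.4 kb (15.6 to 19.9) over 1775 YAP and 19.1 kb (17.2 to 21.1) over 2475 TAZ peaks. These sets are not separate from the TEAD4 one, since 1218 of the 2661 unpaired TEAD4 peaks overlapped both YAP and TAZ. The 18882 unpaired JUN peaks were farther from TEAD4, with a median of 62.2 kb (60.3 to 63.9) and 17.9% within 10 kb. The JUN list is longer than the TEAD4 list, which shortens gaps towards JUN. With the JUN list cut to 8406 peaks the median gap from unpaired TEAD4 peaks was 64.1 kb, and with the stronger 50% of both lists 40.7 kb. The unpaired peaks then include TEAD4 peaks whose JUN partner was left out. Stricter pairing gave median gaps of 3.78 kb with a reciprocal overlap of 50% and 10.8 kb with summits within 200 bp. Overlapping peaks that fail these rules count as unpaired there, so the shorter gaps follow from the rule.

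JUN was sparser around unpaired than around paired TEAD4 peaks. Leaving out the overlapping partner, the next JUN peak was a median of 10.2 kb (9.67 to 10.8) from paired and 18.7 kb from unpaired TEAD4 peaks. No JUN summit other than the partner lay within 50 kb of 17.2% (16.3 to 18.2) of paired TEAD4 peaks, against 30.6% (28.8 to 32.4) of unpaired ones. In the other direction, the next TEAD4 peak was a median of 41.0 kb from paired and 62.2 kb from unpaired JUN peaks. The rank of an unpaired TEAD4 peak did not follow its distance from JUN: the median percentile was 46.8 (40.2 to 51.6) with JUN within 1 kb, 41.5 from there to 10 kb, 43.9 from there to 100 kb and 45.3 (40.2 to 50.1) beyond 100 kb. As background, YAP and TAZ were both present at 75.4% of paired and 45.8% of unpaired TEAD4 peaks, and neither at 12.2% and 32.1%.

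**Figure D4:**
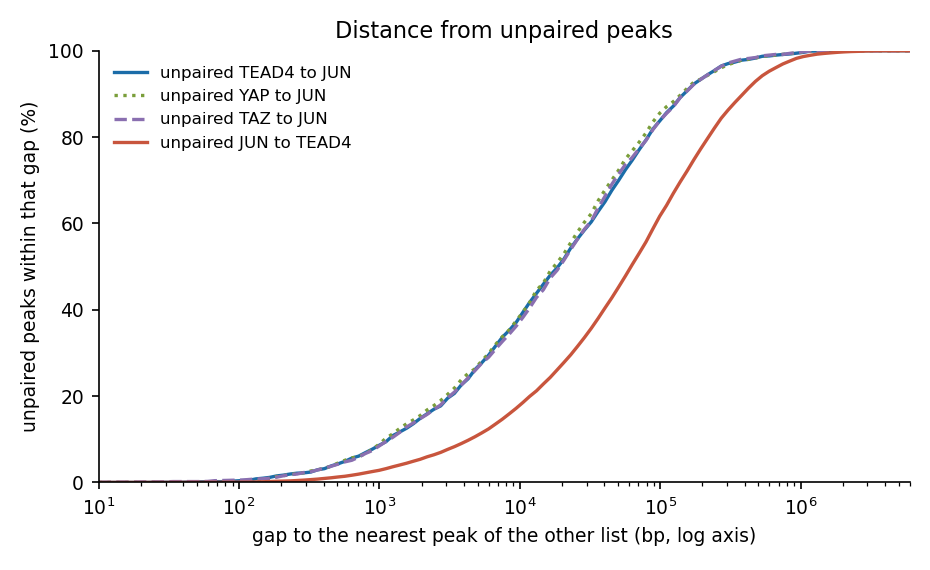
Share of unpaired peaks (%) against the gap to the nearest peak of the other list in bp on a log axis. The TEAD4 (blue), YAP (green, dotted) and TAZ (purple, dashed) curves towards JUN run together, with medians of 18.7, 17.4 and 19.1 kb, and the curve from unpaired JUN to TEAD4 (red) lies to their right with a median of 62.2 kb.

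Some of the strongest peaks of both lists were unpaired. The second most enriched TEAD4 peak, on chromosome 7 (5630858 to 5631537, 31.2-fold), had its nearest JUN peak 3.23 kb away. The next unpaired TEAD4 peaks by enrichment lay on chromosome 2 (151267298 to 151268013, 27.995-fold), chromosome 4 (102874914 to 102875602, 27.6-fold), chromosome 12 (46887932 to 46888721, 27.1-fold) and chromosome 13 (88651408 to 88652236, 26.4-fold). Their gaps to JUN were 60.7, 22.6, 1.13 and 875 kb, and all 5 peaks overlapped both YAP and TAZ.

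The most enriched JUN peak of all, on chromosome 7 (98047724 to 98048749, 39.9-fold), was 134 kb from the nearest TEAD4 peak. The following unpaired JUN peaks lay on chromosome X (102911341 to 102912665, 38.2-fold), chromosome 7 (128469321 to 128471067, 37.5-fold), chromosome 17 (47049232 to 47050355, 37.1-fold) and chromosome 2 (11075613 to 11077003, 36.6-fold). Their gaps to TEAD4 were 202, 658, 49.5 and 217 kb. Of these 5 JUN peaks, 3 overlapped YAP and TAZ although no TEAD4 peak was listed there, and the peaks at 98047724 on chromosome 7 and on chromosome 17 overlapped neither. Of the 10 most enriched JUN peaks 2 were paired, and 5 of the 10 with the lowest p, beside 23.1% of the whole list. Of the 10 most enriched TEAD4 peaks 9 were paired, and 8 of the 10 with the lowest p, beside 68.3% of the whole list. The intervals of counts this small are wide, and each of the 4 includes the share of its whole list.

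Along the genome the lists were broadly parallel. Of the 2595 bins of 1 Mb with a peak of either list, 2164 (83.4%) held both, 402 (15.5%) held JUN without TEAD4 and 29 (1.12%) held TEAD4 without JUN. The number of TEAD4 and JUN peaks per bin was related with rho 0.74, a value that includes the shared control and the mappable content of each bin. The bins with JUN alone held 1383 JUN peaks (5.63% of the list), and the bins with TEAD4 alone held 34 TEAD4 peaks (0.404%). Only 29 of the 2595 bins lacked JUN, so nearly any TEAD4 peak would share its megabase with JUN. The 2661 unpaired TEAD4 peaks mostly did so. They were spread over 1449 bins, of which 767 held 1, 416 held 2 and 266 held 3 or more, and the last group contained 1062 of them (39.9%, 38.0 to 41.8). That share depends on bin size, being 23.1% with bins of 500 kb and 91.9% with bins of 5 Mb, and on pairing, being 62.4% with a reciprocal overlap of 50% and 69.0% with the JUN list cut to 8406 peaks.

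By chromosome, JUN was present at 53.3% to 77.6% of TEAD4 peaks, with a median of 68.3%. The interval lay below the share of the whole list on chromosome 6 (57.7%, 53.9 to 61.5) and chromosome X (53.3%, 44.0 to 62.4). It lay above on chromosome 5 (73.6%, 69.8 to 77.3) and chromosome 10 (77.6%, 73.4 to 81.5). There were 2.33 JUN peaks per TEAD4 peak on chromosome 6 and 4.62 on chromosome 22. Chromosome X had the longest median gap from unpaired TEAD4 peaks to JUN, 39.5 kb, and chromosome 22 the shortest, 8.93 kb.

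**Figure D5:**
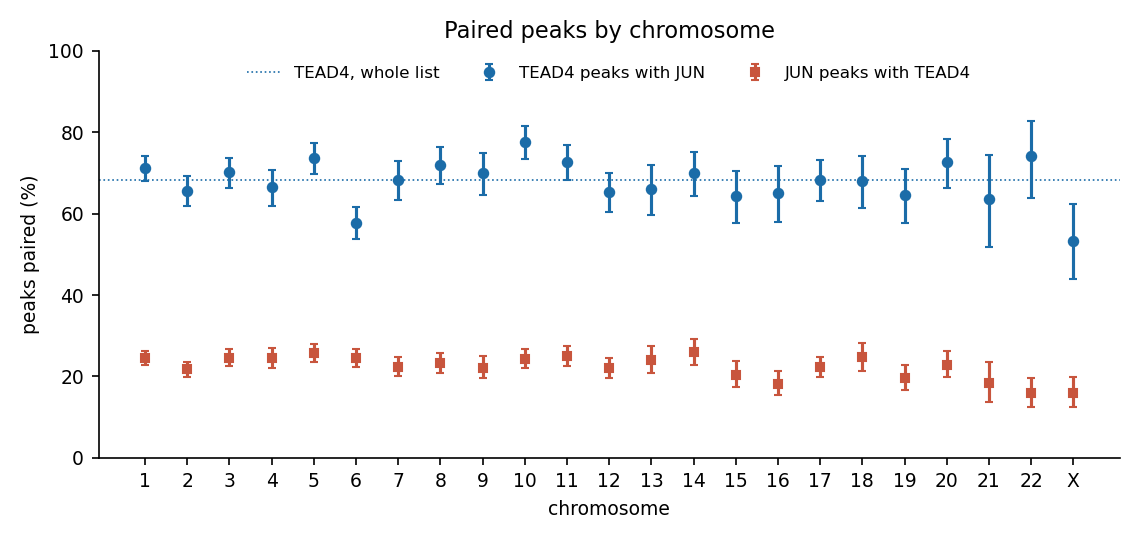
Share of TEAD4 peaks with JUN (blue circles) and of JUN peaks with TEAD4 (red squares) on each chromosome, in %, with Clopper-Pearson 95% intervals; the dotted line is the whole TEAD4 list at 68.3%. Chromosomes 6 (57.7%) and X (53.3%) lie below the line and chromosomes 5 (73.6%) and 10 (77.6%) above it with their whole intervals.

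The 5 bins with the most unpaired TEAD4 peaks held between 3 and 11 JUN peaks each. Of these, 3 adjoin on chromosome 6, an interval known for clustered histone and transfer RNA genes: from 28000001 to 29000000 all 37 TEAD4 peaks were unpaired beside 10 JUN peaks, from 27000001 to 28000000 31 of 32 beside 3 JUN peaks, and from 26000001 to 27000000 26 of 29 beside 11. Together they held 94 unpaired TEAD4 peaks, 33.3% of those on chromosome 6 and 3.53% of all. Without them the paired share was 67.0% on chromosome 6 and 69.1% over the genome, higher as their choice requires. The remaining bins were on chromosome 16 (3000001 to 4000000, 11 of 14 TEAD4 peaks unpaired, 4 JUN peaks) and chromosome 14 (21000001 to 22000000, 10 of 11 unpaired, 8 JUN peaks).

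Unpaired TEAD4 peaks in the 3 chromosome 6 bins differed in make-up from the rest. They ranked high by p, at a median percentile of 90.01 (88.2 to 92.4), and less high by enrichment, at 59.9 (52.1 to 64.4), with a median width of 574 bp. TAZ without YAP was present at 89.4% (81.3 to 94.8) of the 94, against 18.3% (16.8 to 19.8) of all unpaired TEAD4 peaks and 10.3% of paired ones. In the 18 other bins with at least 6 unpaired TEAD4 peaks, a minimum chosen after the values were seen, there were 136 unpaired peaks, for which that share was 44.9% (36.3 to 53.6) and the median percentiles were 66.5 by p and 57.7 by enrichment. Outside the 3 chromosome 6 bins the 968 unpaired TEAD4 peaks of bins with 3 or more had medians of 45.6 by p and 43.5 by enrichment, near those of all unpaired peaks (44.8 and 43.8).

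Among bins with JUN and no TEAD4, the most JUN peaks were 15, on chromosome 11 (19000001 to 20000000) and on chromosome 22 (47000001 to 48000000). Bins on chromosome 14 (77000001 to 78000000) and chromosome 20 (23000001 to 24000000) held 14 each, and 2 bins on chromosomes 3 (128000001 to 129000000) and 9 (95000001 to 96000000) tied at 12. TAZ peaks numbered between 2 and 4 in each of these 6 bins, and YAP peaks between 0 and 3. The most paired TEAD4 peaks in a bin were 18 of 21, on chromosome 11 (12000001 to 13000000), followed by 16 of 16 on chromosome 10 (95000001 to 96000000), where 28 JUN peaks were listed.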

How the data were processed

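Sonicated, cross-linked chromatin of MDA-MB-231 cells was immunoprecipitated and sequenced, per the labels' protocols. The submitters' processing notes name build hg19 and the tools MACS2 2.0.10, Bowtie 0.12.7, CASAVA and SAMtools. Per the labels, peaks passed an irreproducible discovery rate (IDR) procedure, which keeps peaks that recur between replicates. Filters beyond these are not given here. The authors deposited 1 list per factor, with a start, an end and a summit for each peak, the fold enrichment over IgG (a ratio), and the −log10 of the p-value. These values of each peak served only for ranking and description inside its own list. Sample titles name the factor, which set the groups. Read depth is unknown, and its effect on precision with it.

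Peaks overlapping by 1 bp or more were paired, each TEAD4 peak with the overlapping JUN peak of nearest summit. Percentiles use average ranks. Gaps are the bases between peak edges, and a peak was assigned to a 1-Mb bin by its summit. Shares have Clopper-Pearson and medians order-statistic 95% intervals. No test was run, since the lists hold no values per replicate. Pairing, offsets and gaps were checked on simulated lists. Python 3.11.15, numpy 2.4.6, pandas 2.3.3 and scipy 1.17.1 were used.

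Sites are named by rule: the 5 pairs of best mean percentile, the 3 with the largest percentile gap each way, the 3 with the longest offset, the 5 most enriched unpaired peaks of each list, and the 5 bins with the most unpaired TEAD4 peaks and with the most JUN peaks without TEAD4. The 2 bins with the most paired TEAD4 peaks were chosen after their values were seen. The members and rules were chosen with earlier results of these data known. Alternatives were other overlap rules, list lengths, ranks, peak widths and bin sizes, and leaving out chromosome 6. Gene lists, start sites and motifs were not analysed here, because the tables used here are on GRCh38 and the peaks on hg19.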

Additional observations from a re-analysis of the deposited data

How the results depend on the processing

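For 12 results, 73 alternative values were computed: 37 lay inside the 95% interval given for the result and 36 outside it. The relation of ranks within pairs kept its sign in each alternative, and the share of pairs with JUN at the higher coordinate stayed within its interval in each. A reciprocal overlap of 50% paired 50.8% of TEAD4 and 17.4% of JUN peaks, with median percentiles of 56.8 for paired TEAD4, 60.8 for paired JUN and 47.5 for unpaired JUN peaks. It gave a median offset of 29 bp, a median gap of 3.78 kb from unpaired TEAD4 peaks to JUN with 60.2% within 10 kb, and 62.4% of them in bins with 3 or more, since overlapping peaks then count as unpaired. Summits within 200 bp gave 62.1%, 21.3%, 27 bp, 10.8 kb and 48.3% for the 2 paired shares, the offset, the gap and the share within 10 kb. Overlapping peaks with summits farther apart counted as unpaired there too. The stronger 50% of each list gave 52.3%, 17.8%, 29 bp, 40.7 kb and 26.9% in the same order. With the JUN list cut to the length of the TEAD4 list, 35.7% of TEAD4 and 34.999% of JUN peaks were paired. Median percentiles were then 57.8 and 45.9 for paired and unpaired TEAD4, and 53.0 and 48.4 for paired and unpaired JUN. The rank correlation within pairs was 0.166, the gap 64.1 kb, the share within 10 kb 19.7% and the share in bins with 3 or more 69.0%. TEAD4 peaks whose JUN partner was left out count as unpaired in these values. Ranked by −log10 p, paired JUN peaks had a median percentile of 67.5 and the rank correlation was 0.166. Narrow peaks only gave an offset of 23 bp. The share of unpaired TEAD4 peaks in bins with 3 or more was 37.2% without chromosome 6, 37.7% without its interval from 26 to 29 Mb (chosen after seeing the data), 23.1% with bins of 500 kb and 91.9% with bins of 5 Mb. No paired analysis was possible because each factor has 1 list without values per replicate, which also means that no replicate could be left out. What depth limits is unknown here.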

Other observations

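Read in order of position, the 2661 unpaired TEAD4 peaks formed 1688 runs of consecutive TEAD4 peaks without JUN. Of these runs 1145 (67.8%) were a single peak. The remaining runs were longer, and 37 runs of 5 or more held 308 peaks. Whether unpaired peaks cluster in this order was not tested. The longest run was 56 peaks on chromosome 6 (27515304 to 30711318), the next 36 peaks on chromosome 6 (26286465 to 27487603), and the third 12 peaks on chromosome 14 (20810624 to 21152568). Unpaired JUN peaks formed 4260 runs with a median of 3 peaks. The longest were 57 peaks over 27.3 Mb of chromosome X (17430682 to 44762798) and 48 peaks over 7.56 Mb of chromosome 2 (127911116 to 135470284). The unpaired JUN peak farthest from any TEAD4 peak on its chromosome lay within that stretch of chromosome X (30301509 to 30302253, 15.9-fold), 5.41 Mb away. The farthest unpaired TEAD4 peak was also on chromosome X (125784972 to 125785314, 6.62-fold), 2.10 Mb from JUN.

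The numbers in the peak names ascend along each chromosome, up to 96825 in the JUN list and 28115 in the TEAD4 list. If they count all candidates of the peak caller, the list holds 25.4% of JUN and 29.9% of TEAD4 candidates. Of the 2654 unpaired TEAD4 peaks that lay between listed JUN peaks, 42 (1.58%, 1.14 to 2.13) lay between JUN peaks with successive numbers. On that reading no unlisted JUN candidate can fall there. For the others, on the same reading, at least 1 unlisted candidate lay somewhere in the interval between the flanking JUN peaks. The median over all was then 5.5 candidates in 133 kb. The position of unlisted candidates is not in the numbers, so how many unpaired TEAD4 peaks coincide with a JUN candidate below the authors' threshold was not tested.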
